A study of Carex littledalei with 18 samples.

Results

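The genes described here are 100 assembled leaf transcripts of Kobresia littledalei (Carex littledalei), a sedge of alpine grassland, that stood higher after 0.5 h at -5 °C than in any library of the other times. A gene was taken when the lowest of its 3 values at 0.5 h lay above the highest of the other 14 libraries, when its mean at 0.5 h was at least 2, and when each 0.5 h library held at least 10 counts. Of the 214531 assembled genes, 25793 had the level and counts asked for at 0.5 h and 242 of these met the rule, which is 0.938% of them. The 100 genes with the highest ratio were kept, where the ratio is the 0.5 h mean plus 0.1 over the highest mean of any other time plus 0.1. The genes were chosen by these scaled values, so the level at 0.5 h against the other times is described, and calls in contrasts with 0.5 h are printed with nothing read from them.

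Plants collected from the field in Tibet were grown in pots for 7 days at 25 °C and moved to a room at -5 °C. Leaves were taken after 0, 0.5, 4, 12, 24 and 48 h in the cold, with 3 libraries at each time and 18 in all, and each time was a pot of its own. No plants kept warm for the same times were included, and the labels do not say whether the 3 libraries of a time came from separate plants, so p-values measure only the spread between these libraries, which may be technical. A high level at 0.5 h therefore belongs to the leaves of 1 pot at 1 time: time in the cold, the move and the pot cannot be told apart, and no pot was followed through a rise and a return. In bulk leaf RNA, more cells of a type and more RNA per cell also cannot be told apart.

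The library totals ran from 18895399 to 32345479 counts, and those at 0.5 h were 20511162, 29079997 and 26629425. Replicate 1 of 0 h and replicate 1 of 4 h had identical columns, with the same values in all 214531 rows of both tables. The list was made with these values at 0 h and without the 4 h column, so that 17 libraries entered it, and the time they belong to is not known. Leaving them out as well kept 99 of the 100 genes. Another library, 24 h replicate 2, had the most genes with at least 10 counts (72880, against 36282 to 56250 in the others), and leaving it out kept all 100. Among the 0.5 h libraries, replicate 3 had the fewest such genes (38132, against 50506 and 50064 in replicates 1 and 2). Leaving out replicate 1, 2 or 3 of 0.5 h, which also loosens the rule, kept 74, 81 and 68 of the 100.

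As background, cold raises calcium in the cytosol of plant cells at once, and in Arabidopsis this is followed by fast and brief transcription of regulatory genes, among them the CBF transcription factors, which later act on genes of freezing tolerance. Short handling, touch and changes of light also raise fast and brief transcripts in Arabidopsis leaves. The row identifiers are those of a de novo transcript assembly. The files do not pair them with gene names, so none of the 100 genes can be placed in these pathways here. Identifiers are printed for the first 2 genes, and the others are named by their rank in the ratio.

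Most of the 100 genes were low even at 0.5 h, and nearly silent elsewhere. Levels are those of the authors' table scaled for gene length and library composition, called scaled values here. The mean at 0.5 h had a median of 4.69 over the 100 genes, with quartiles at 3.22 and 9.23. It was under 5 in 53 genes, from 5 to 10 in 24 and at least 10 in 23. At the other times the median over the 100 genes of the mean level was 0.065, 0.078, 0.189, 0.198 and 0.182 in order of time. Of all the values of these genes in the other 14 libraries, 49% rested on 0 counts. The ratio ran from 170 to 3.30 with a median of 10.6, and it was over 10 in 51 genes, over 20 in 33, over 50 in 10 and over 100 in 4.

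**Figure D1:**
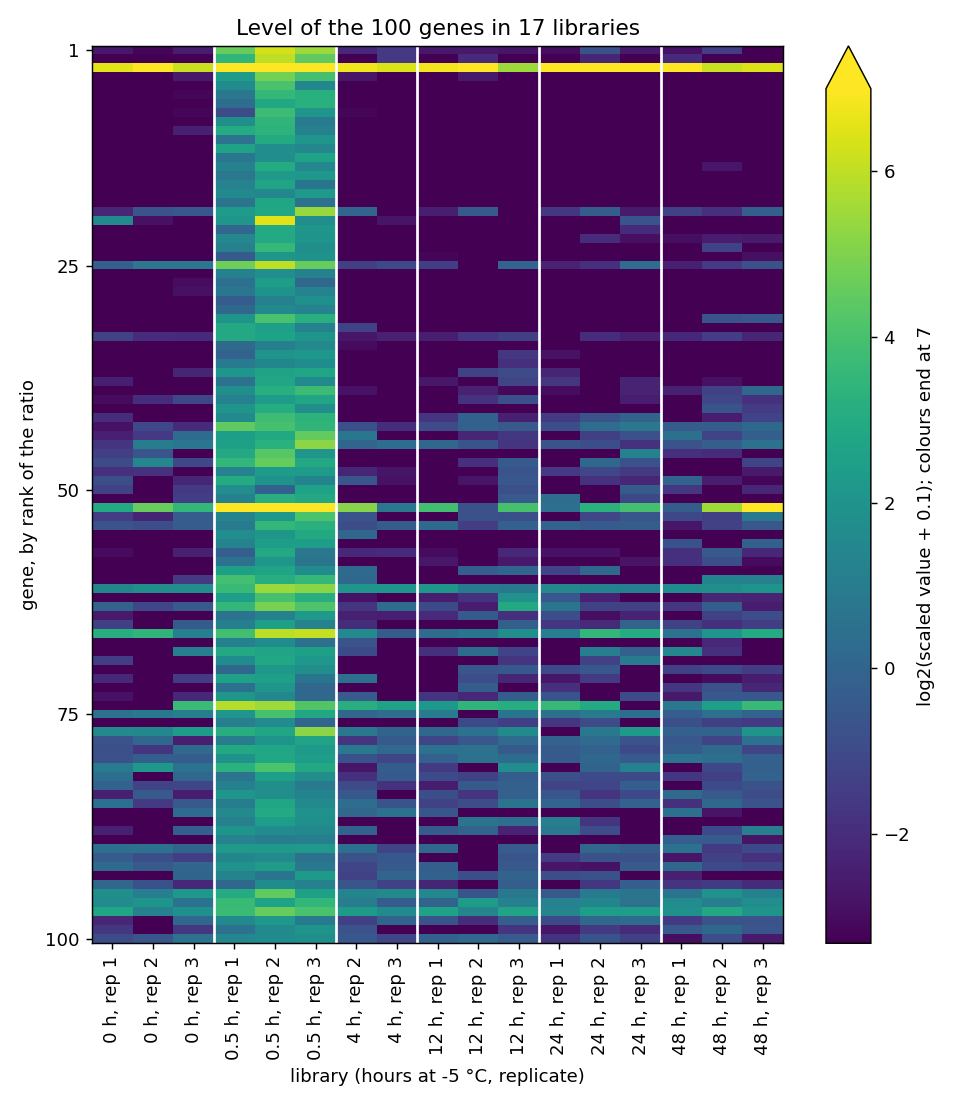
Each row is one of the 100 genes, ordered by ratio, and each column one of the 17 libraries; colour is log2(scaled value + 0.1) and ends at 7. The 3 libraries at 0.5 h form a bright band in every row, and most of the first 50 rows are dark in the other 14 libraries.

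The gene with the highest ratio, TRINITY_DN199307_c1_g3, had scaled values of 24.3, 80.4 and 45.1 in the 3 libraries at 0.5 h. Its values were 0.057, 0.012 and 0.072 in the 0 h libraries and 0.119 and 0.228 in those of 4 h. The 12 h libraries stood at 0.06, 0.065 and 0.048, those of 24 h at 0.028, 0.487 and 0.07 and those of 48 h at 0.043, 0.267 and 0. All 3 libraries at 0.5 h were far above the other 14, of which the highest was 24 h replicate 2. Its mean was 49.9 ± 28.3 at 0.5 h (SD, n = 3) and 0.047 ± 0.0312 at 0 h (SD, n = 3). In edgeR's fit of counts without the identical columns, it was higher than at 0 h by 9.31 on the log2 scale, with an SE of 1.27 back-calculated from the F statistic.

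TRINITY_DN187288_c0_g1, second by ratio, had scaled values of 11.03, 65.1 and 22.0 at 0.5 h. It had 0 counts in all 3 libraries at 0 h. Elsewhere it held 4 counts in all, with 1 library above 0 at each of the later times, and the highest of these scaled values was 0.228 in 4 h replicate 3. The gene was the only one of its assembly component, a set of assembled genes linked by shared sequence.

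The third gene was by far the most abundant of the list. Its scaled values at 0.5 h were 6688, 32049 and 32938. They were 96.5, 192 and 72.9 in the 0 h libraries, 110 and 85.2 in those of 4 h and 113, 247 and 45.0 in those of 12 h. The 24 h libraries stood at 150, 209 and 140, and those of 48 h at 147, 69.7 and 86.6. This gene was thus present in every library, and its lowest 0.5 h library was 27.0 times its highest other library. It was also the shortest of the list by effective length, at 0.108 of the median gene with 10 counts in each 0.5 h library, and a short length raises a value scaled for length. It took 0.866%, 3.86% and 2.63% of the summed scaled values in the 0.5 h libraries, but 0.135%, 0.495% and 0.284% of their counts. In edgeR's fit it was higher than at 0 h by 7.59 on the log2 scale (SE 1.15, back-calculated).

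Ranks 4 to 12 were genes of middling level at 0.5 h with no more than 3 counts in the other 14 libraries together. The fourth stood at 4.96, 28.3 and 15.5 at 0.5 h and the fifth at 3.05, 16.1 and 2.72. The sixth stood at 1.58, 11.5 and 9.33, the seventh at 1.23, 7.29 and 9.21, and the eighth at 0.417, 13.4 and 4.08. The ninth stood at 3.43, 10.7 and 1.89, the tenth at 7.96, 10.1 and 2.19, the gene of rank 11 at 1.41, 7.93 and 4.13, and that of rank 12 at 6.14, 3.27 and 2.64. Replicate 2 was the highest of the 3 libraries in 7 of these 9 genes, all but those of ranks 7 and 12. Of the 9, ranks 5, 7, 9, 11 and 12 had 0 counts in every other library. Ranks 4 and 7 are genes of the same assembly component and may share reads.

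**Figure D2:**
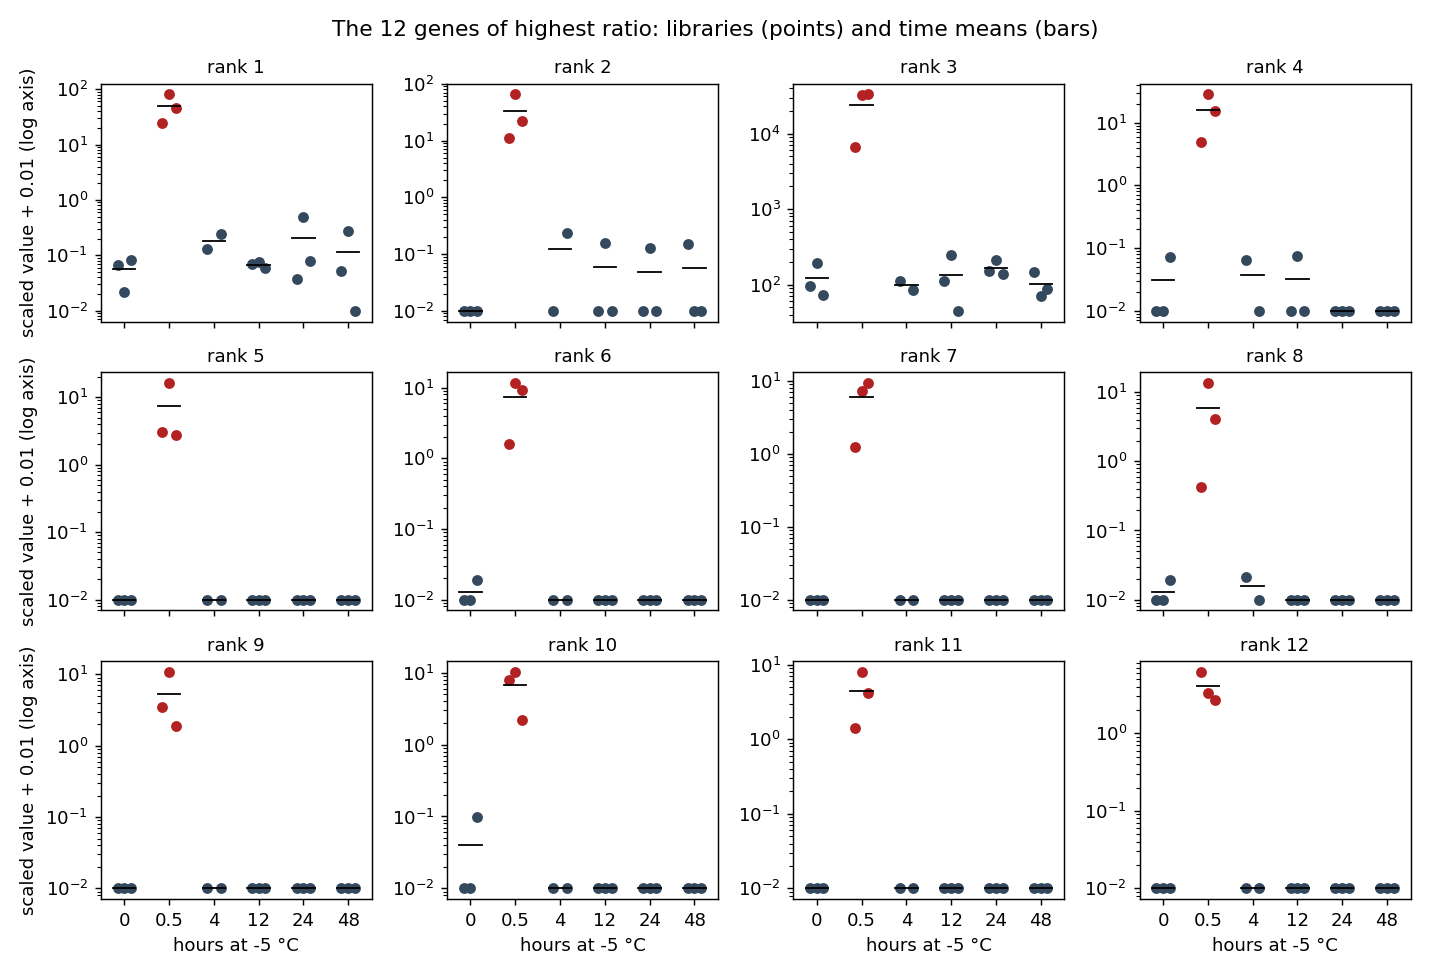
Scaled value + 0.01 on a log axis against hours at -5 °C for the 12 genes of highest ratio; points are libraries and bars are time means. At 0.5 h (red) all 3 libraries lie above every other library, and ranks 5, 7, 9, 11 and 12 lie on the floor of the axis at all other times.

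By level at 0.5 h, the 5 leading genes were those of ranks 3, 52, 1, 66 and 74, of which ranks 3, 52 and 66 had counts in all 14 other libraries. The gene of rank 52 stood at 241, 420 and 1330 at 0.5 h, at 7.85, 24.3 and 11.4 at 0 h and at 34.7 and 1.66 at 4 h. Its values were 14.4, 0.485 and 15.8 in the 12 h libraries, 1.28, 9.64 and 15.6 in those of 24 h and 0.735, 46.4 and 168 in those of 48 h. It varied widely at 48 h, where the third replicate came within 1.5 times of the lowest 0.5 h library. Rank 66 stood at 14.7, 62.6 and 69.0 at 0.5 h, with 7.30 ± 4.59 at 0 h (SD, n = 3) and 7.14 ± 4.70 at 24 h (SD, n = 3), and its highest value elsewhere was 11.2. Rank 74 stood at 57.0, 45.2 and 18.3 at 0.5 h, and its highest value elsewhere was 13.025, in 0 h replicate 3. Rank 74 had 0 counts in 3 of the other libraries, 2 of them at 0 h. For both genes the lowest 0.5 h library was less than 1.5 times the highest other library.

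The genes fell into 4 groups by their counts in the other 14 libraries. The first held 13 genes with 0 counts there, with means at 0.5 h between 2.04 and 7.28 and ranks 5 to 30. A floor of 3 counts over the 14 libraries together was set beside them, which covers counting error only. Their mean CPM at 0.5 h (counts scaled to the library total) was 118-fold to 1787-fold that floor, with a median of 247-fold. The genes were grouped by their 0 counts, the 14 libraries were pooled and the error at 0.5 h was left out. These folds are therefore not strict lower bounds. The second held 10 genes with up to 3 counts elsewhere and means at 0.5 h between 2.01 and 16.2. The third and largest held 61 genes with counts in some of the other libraries, with a median mean of 4.66 at 0.5 h and a median ratio of 7.84. The fourth held 16 genes with counts in all 14, a median mean of 14.1 at 0.5 h and a median ratio of 5.56. Genes of the last group were the more abundant at 0.5 h and, apart from the third gene, had ratios of 13.8 and less. The first group also held 13 genes without 0 h replicate 1, and 13 without 24 h replicate 2.

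**Figure D3:**
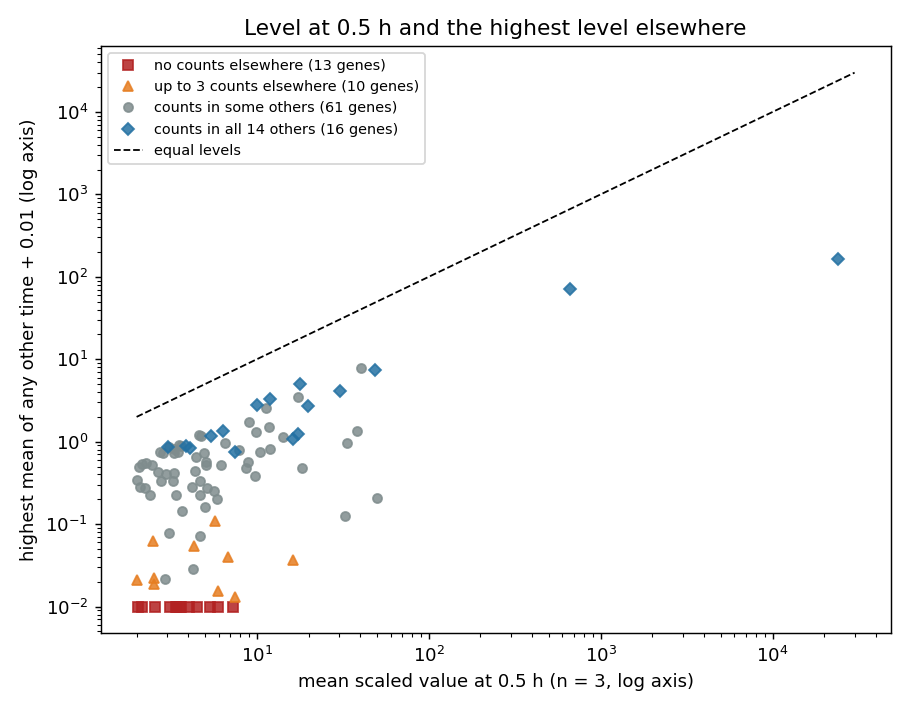
Each point is one of the 100 genes: its mean scaled value at 0.5 h (n = 3) against its highest mean of any other time + 0.01, both on log axes, by group. All points lie under the dashed line of equal levels, the 13 genes without counts elsewhere lie on the floor, and the third gene stands alone at the right, at 23892.

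How precisely the 0.5 h level is known differs much among the genes. The lowest count among the 3 libraries at 0.5 h had a median of 36.6 over the 100 genes, was under 30 in 44 of them and at least 100 in 21. Over all 25793 genes of enough level and counts at 0.5 h, that lowest count had a median of 111. The highest and lowest of the 3 values differed by a median of 3.32 times in the list, against 2.19 times over those 25793 genes. The difference was more than 5-fold in 23 of the 100 genes, against 9.30% of the 25793. It was largest in the gene of rank 8, at 32.2-fold, and in that of rank 20, whose values of 4.02, 93.2 and 3.20 rest mostly on replicate 2. It was smallest in the gene of rank 90, at 1.05-fold, which had values of 4.74, 4.52 and 4.55.

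The genes leaned the same way among the 3 libraries. Replicate 2 was the highest in 57 of the 100 genes, replicate 3 in 27 and replicate 1 in 16. Over the 25793 genes these shares were 31.8%, 37.7% and 30.5%. Replicate 1 was the lowest in 58 genes, against 30.7% of the 25793, and replicate 2 in 8, against 28.2%. The order replicate 2, then 3, then 1 was seen in 35 genes, where 10.96% of the 25793 had it. The 100 genes together took 0.207%, 0.675% and 0.393% of the counts of these libraries. In the other 14 libraries they took 0.0065% to 0.017%.

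**Figure D4:**
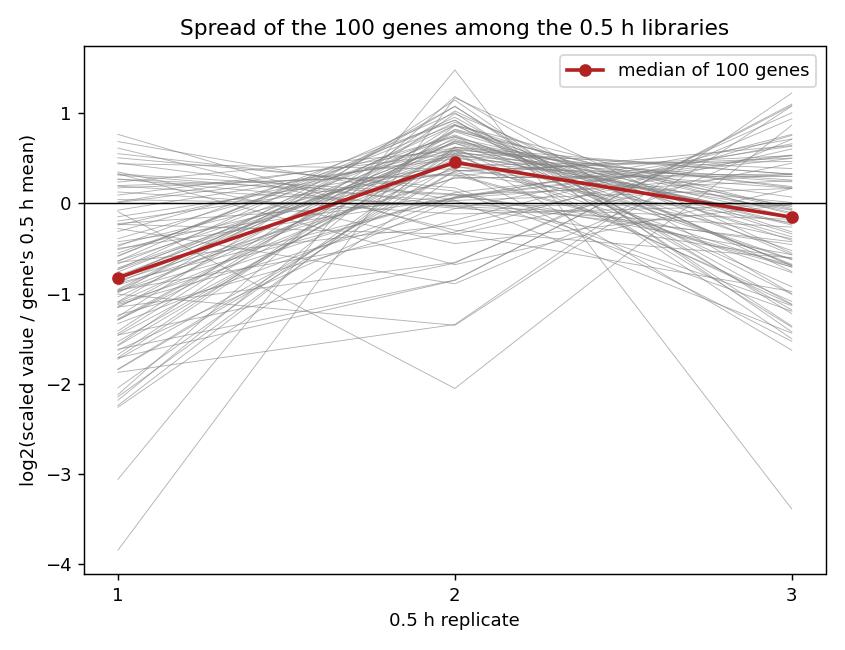
For each of the 100 genes (grey lines), log2 of the scaled value in each 0.5 h library over the gene's 0.5 h mean; the red line is the median. Replicate 2 was the highest of the 3 in 57 genes and replicate 1 the lowest in 58, and the lines cross in many genes.

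The gap to the other times was wide for some genes and narrow for others. The lowest 0.5 h library was more than 2 times the highest other library in 64 genes and more than 10 times in 29, counting the 13 listed at 0 elsewhere. It was within 1.2 times in 6 genes, the narrowest being 1.06 in the gene of rank 94. Of the 87 genes with a value elsewhere, 19 had their next highest mean at 0 h and 14 at 4 h. For 12, 24 and 48 h the numbers were 15, 16 and 23. Of the 25793 genes, 22.1%, 22.9%, 13.99%, 14.2% and 26.8% had their highest mean of these 5 times at 0, 4, 12, 24 and 48 h, and no time is read as particular to the list. The next highest library was most often 12 h replicate 3, in 11 genes, and each of the other libraries held that place in 2 to 10.

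In the pot sampled at 4 h the genes were low again. The mean at 4 h was a median of 0.478% of the mean at 0.5 h, and was under 1% in 52 genes and over 10% in 25, the highest share being 24.7%. In 42 genes all libraries at 4 h (n = 2) held 0 counts, as did all libraries at 0 h (n = 3) in 37. The median log2 fold change of the 100 genes in edgeR's fit was 6.66 at 0.5 h against 0 h, beside 0.13 over all 68030 genes tested, and -7.01 at 4 h against 0.5 h, beside -0.14. Where a gene had 0 counts at 0 h or 4 h, the size of its fold change depends on the small count that edgeR adds. These medians are therefore only partly measured folds. The contrasts with 0.5 h are those that chose the genes. At an adjusted p under 0.05 in edgeR's quasi-likelihood test, the genes of ranks 1 and 43 were called at 0.5 h against 0 h, 2 of 100, where 0.00588% of all genes tested were called and 0.00294% were called higher. At an unadjusted p under 0.05 these were 85 of the 100 and 5.93% of all genes. At 4 h against 0.5 h none of the 100 genes was called (0 of 100, with 85 at an unadjusted p under 0.05), beside 0% of all genes called and 7.74% with an unadjusted p under 0.05. At 0.5 h against 0 h the count of 2 became 0 with RLE factors, with the replicate block, with the identical library kept at 4 h, and without any 1 library of 0, 0.5 or 4 h. Nothing is read from these counts. The gene of rank 43, chosen for mention after its values were seen, stood at 22.1, 15.9 and 10.7 at 0.5 h and at 0.041, 0.375 and 0.134 at 0 h. Its mean was 0.31 ± 0.22 at 4 h (SD, n = 2). At 12, 24 and 48 h it was 0.624 ± 0.198, 1.08 ± 0.578 and 0.806 ± 0.165 (SD, n = 3 each).

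Whether the genes differed among 0, 4, 12, 24 and 48 h was tested in a fit of 13 libraries without those at 0.5 h and without the identical columns. A filter on low counts that did not see 0.5 h left 47 of the 100 genes for this test, 16 with counts in all 14 other libraries and 31 with counts in some, among 64686 genes in all. The rule still bears on this test, since it kept all other libraries under the 0.5 h values and ranked genes against their highest other mean, which works against genes that peak at another time. None of the 47 passed edgeR's quasi-likelihood test of the 5 times at once (0 of 47, with 6 at an unadjusted p under 0.05), where 0.226% of all genes were called and 11.4% had an unadjusted p under 0.05. DESeq2 also called 0 of the 47, beside 2746 of the 64686 genes, and limma on log2(value + 1) called 0 beside 553. The smallest adjusted p was 0.344, in the gene of rank 39, which had its next highest value, 1.03, in 48 h replicate 3.

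Against 0 h singly, edgeR's test called 0 of the 47 genes at 4, 12, 24 and 48 h, with 1, 4, 3 and 2 genes at an unadjusted p under 0.05. Of all genes, 0%, 0.0201%, 0.0325% and 0.085% were called, and 5.15%, 6.85%, 6.95% and 10.6% had an unadjusted p under 0.05. The median log2 fold changes of the 47 genes were -0.04, 0.03, -0.05 and 0.07 at these times, beside 0.01, 0.08, 0.08 and 0.06 over all genes. Of the 47, 17, 24, 21 and 25 lay above 0, beside 50.3%, 54%, 53.8% and 52.6% of all genes. Some of the rest lay at exactly 0, with no counts in the tested libraries of either time. The 53 genes left out had too few counts outside 0.5 h to pass the filter, and a miss of the threshold by the others does not show that their levels were equal. The third gene, the best covered, had log2 fold changes against 0 h of -0.21, 0.65, 0.68 and -0.11 at 4, 12, 24 and 48 h, with SEs of 0.80, 0.75, 0.75 and 0.73, and its edgeR adjusted p over the 5 times was 0.93.

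The same rule put to the other times gave other numbers of genes. It was met by 147, 242, 618, 11, 52 and 680 genes in order of time from 0 to 48 h. At 4 h the rule saw only 2 libraries, which makes it easier to meet. Replicate 1 of the time in question was then left out, with all libraries of the other times kept. The numbers in the same order were 309, 613, 618, 220, 392 and 1181. They depend on the library left out: at 0.5 h the number was 613, 425 and 1092 without replicate 1, 2 and 3. Ratios over 10 were found for 51 genes at 0.5 h and 48 at 48 h. The 0 h libraries gave 5 such genes, those of 4 h gave 2, and those of 12 and 24 h gave 0. The highest ratio was 170 at 0.5 h and 420 at 48 h, and between 3.27 and 15.9 at the others. Each time was a separate pot, so these numbers may hold differences between pots, which was not tested. In the opposite direction, 120 genes had all 3 libraries at 0.5 h below the other 14, with a mean elsewhere of at least 2 and 10 counts in each of them, 0.531% of the 22600 with enough counts, and their highest ratio was 5.77.

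By their median the genes of the list were shorter than the 25793 genes, but hardly so at like counts. Effective length was taken from the ratio of counts to scaled values in the 0.5 h libraries, relative to the median of all 34160 genes with 10 counts in each of them. Its median was 0.522 in the list, with quartiles at 0.322 and 1.06, and 0.868 over the 25793 genes, with quartiles at 0.428 and 1.64. In the list 68 genes lay under that 0.868. At like counts little of the difference was left. Among the 50 genes of the list with mean counts between 46.3 and 244 at 0.5 h the median length was 0.665, beside 0.684 in all 11165 genes of that range. CPM is scaled neither for length nor for library composition. When it replaced the scaled values in the rule, 61 of the 100 genes stayed among the first 100. The minimum mean of 2 was then read in CPM. Listed genes under 2 CPM at 0.5 h, such as that of rank 36 at 0.547, could not stay. The part of length in the other losses was not tested.

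A large part of the list stood beside other assembled genes of the same component that did not share its course. The 100 genes lay in 90 components, of which 8 held 1 gene only and 82 held several, with a median of 5 and up to 13 genes. In 10 components 2 genes of the list stood together. In the 82 components of several genes, the listed genes took a median of 58.6% of the component's counts at 0.5 h, scaled to the library total, and 4.41% in the other 14 libraries. Counts were then summed over each component. The summed level was higher in all 3 libraries at 0.5 h than in the other 14 for 33 of the 90 components, which hold 39 of the 100 genes; over all components with 10 counts in each 0.5 h library the share was 0.734%. The components were chosen through their listed genes, so that share is given as a description. In the 8 components of 1 gene the sum is the listed gene itself. Of the 82 components of several genes, 26 had all 3 libraries at 0.5 h above the other 14. Over all 90 components the ratio of the summed level, in CPM, had a median of 2.38. It was over 3 in 40 components, under 1.5 in 32 and under 1 in 20, where some other time had a higher summed level than 0.5 h. This ratio differs from that of the list in unit as well as in summing. For components of 1 gene it was 2.53 at rank 98, against 3.37 in scaled values, and 11.4 at rank 93, against 3.59. The part of the unit in the differences after summing was not tested.

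Single components show the range. The gene of rank 4 shares a component with that of rank 7, and the sum stood at 14.3 CPM at 0.5 h and at most 0.0397 CPM at any other time, the 2 genes holding 99.8% of it at 0.5 h. Rank 8 held 89.6% of its component, whose ratio was 276 after summing. The gene of rank 14 held 15.2% of its component at 0.5 h and 0.047% elsewhere, while the component as a whole stood at 48.6 CPM at 0.5 h and reached 57.6 CPM at another time. Rank 39 held 27.4% at 0.5 h and 0.415% elsewhere in a component of 60.8 CPM at 0.5 h and 94.8 CPM at its highest other time. For these last 2 components the listed gene stood higher at 0.5 h and the sum of the component did not. The gene of rank 97 held 92.7% of its component at 0.5 h and 94.3% elsewhere. Its ratio was 3.48 in scaled values, but that of the summed CPM was 1.32. In edgeR's fit of counts this gene was higher than at 0 h by only 0.46 on the log2 scale (SE 0.42, back-calculated). Copies, alleles and fragments of a plant gene can stand as several rows of an assembly, and reads of shared sequence can be divided among them; their part in these shares was not tested.

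**Figure D5:**
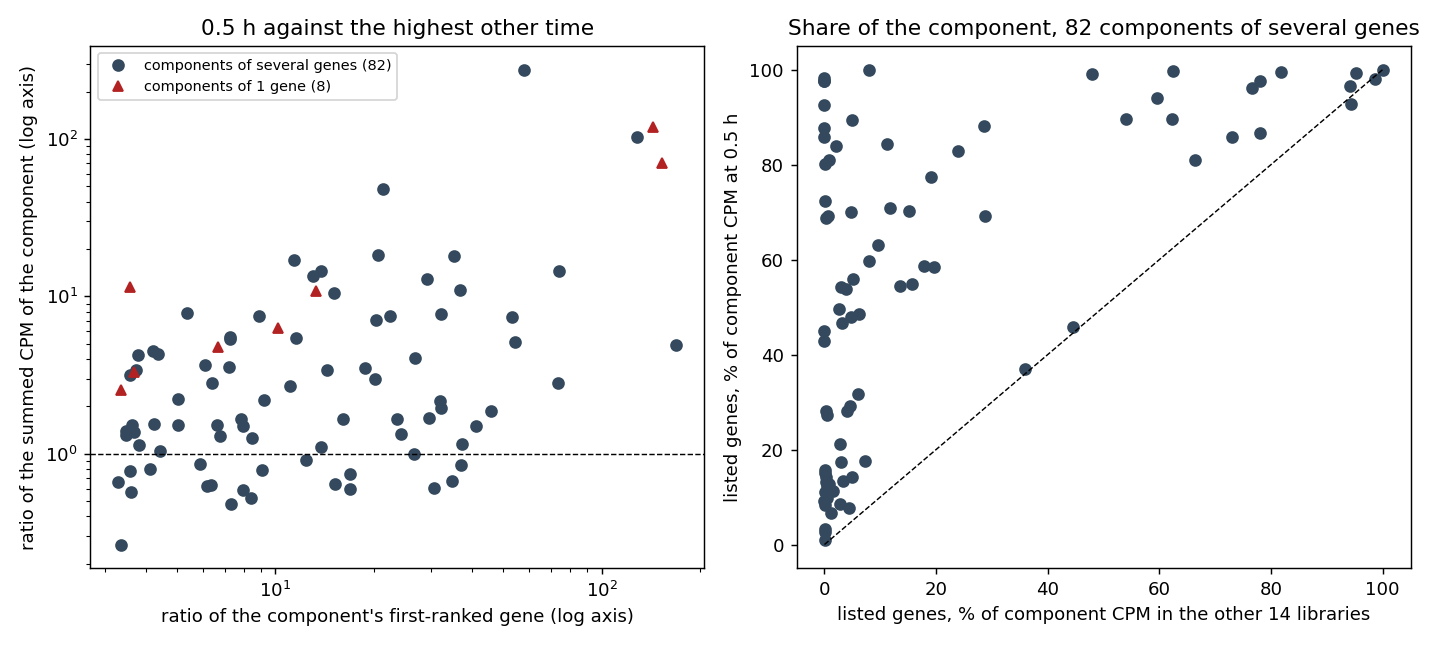
Left, the ratio of 0.5 h to the highest other time, in scaled values, for the first-ranked gene of each of the 90 components. It is set against the ratio formed likewise from the summed CPM of the component, both on log axes. The axes thus differ in unit as well as in summing. Of the components, 20 lie under the dashed line at 1. Right, the share of the component's CPM held by listed genes at 0.5 h against that in the other 14 libraries for the 82 components of several genes, with medians of 58.6% and 4.41%.

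The other genes of these components were looked at for themselves. Of 366 such genes outside the list, 196 passed the filter of the fit of all 6 times. In 55 of them the highest mean was at 0.5 h, 28.1%, where 17.1% of the 67930 tested genes outside the list had it there. All 3 libraries at 0.5 h lay above the other 14 in 14 of the 196, or 7.14%, against 0.574% of the 67930. Of these, 1 met the whole rule and lay outside the first 100. In 0 of the 196 did all 3 libraries at 0.5 h lie below the other 14, a pattern seen in 0.266% of the 67930. These genes share sequence with the listed genes and are not independent of them.

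At the edges of the rule, ranks 99 and 100 had ratios of 3.37 and 3.30 and the first 2 genes outside had 3.30 and 3.27. Among genes that met the other conditions at the ratio of rank 100 or more, the means at 0.5 h nearest to the limit of 2 were 2.01 and 2.02 inside and 1.998 and 1.88 outside, and 60 genes lay outside. The lowest counts nearest to the limit of 10 were 10 and 10 inside and 9 and 8 outside, and 20 genes lay outside.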

How the data were processed

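RNA of 18 leaf samples was sequenced. Per the labels, RNA was extracted with Trizol and 2 µg went into MGIEasy mRNA libraries. The submitters' processing notes name Trimmomatic 0.36 and FastQC. Aligner, counter and build: not given in the sources used here. Each table covers the same genes. The authors deposited estimated counts per assembled gene (expected counts, not scaled) and a signal table of the same genes, scaled by TMM per its name and, from its values set against the counts, for gene length; whether it is TPM or FPKM is not stated. All columns were matched by sample title, and 0 were left unmatched.

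The members and the descriptions were chosen with earlier results of these data known. Identifiers were printed for the first 2 ranks. The first 12 ranks and the 5 highest levels at 0.5 h were described; 0 members were called in the test that would have added more. Ranks 14, 20, 36, 39, 43, 90, 93, 94, 97 and 98 are also named as examples or extremes, chosen after their values were seen. Rounded counts were tested with edgeR 4.0.16 under R 4.3.3 (filterByExpr, TMM, a mean per time, quasi-likelihood F test, Benjamini-Hochberg over all genes): 13 libraries without 0.5 h for the other times (8 residual degrees of freedom), and 16 for the contrasts of 0.5 h, both without the identical columns. The SE is the absolute log2 fold change over the square root of F. The test of 48 h against 0 h was run on simulated counts, where it missed the smaller of the changes put in. Changes were put only into genes above a minimum mean count in the fit of 13 libraries. The fit with 0.5 h was not simulated. Tables were made in Python 3.11.15. Alternatives included DESeq2 1.42.0 and limma 3.58.1. Depth bounds every low value: the floor of 3 counts covers counting error only.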

Additional observations from a re-analysis of the deposited data

How the results depend on the processing

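The test among 0, 4, 12, 24 and 48 h called 0 listed genes in 12 of 13 alternatives and 6 of 87 without a filter, where 13744 of 197808 genes were called; leaving out each library in turn gave 0 to 0. Against 0 h singly, 0 listed genes were called in all 13 alternatives and all 13 left-out libraries. For all genes, the 146 calls among these times became 29 to 13744 over the alternatives and 21 to 455 over left-out libraries, and the 0, 13, 21 and 55 against 0 h at 4, 12, 24 and 48 h became 0 to 1003, 7 to 1122, 10 to 3028 and 15 to 1810 (left out: 0 to 2, 0 to 23, 0 to 23 and 4 to 138). Leaving out a 0 h or 4 h library leaves 1 there, assumed to vary like the other times.

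For 0.5 h against 0 h, 2 listed genes became 0 with RLE factors, an adjusted p of 0.01, the identical library at 4 h or the replicate block, 11 with it at 0 h, 24 in DESeq2, 63 and 53 in limma with 1 and 0.1 added, and 40 without a filter, where 30, 225, 167, 205 and 795 of all genes were called; left-out libraries gave 0 to 3. The count was 0 without any 1 library of 0, 0.5 or 4 h, 24 h replicate 3, or 48 h replicate 1 or 2, and 1 without 24 h replicate 2 or 48 h replicate 3. For 4 h against 0.5 h, 0 became 1 with library size alone, 8 with the identical library at 4 h, 4 with it at both times, 32 in DESeq2, 61 and 52 in limma and 48 without a filter, where 1, 8, 4, 450, 165, 141 and 1274 of all genes were called, and left-out libraries gave 0 to 2 (2 without 24 h replicate 1). Deviations of same-numbered libraries had correlations from -0.338 to 0.184 over 23 pairs of the 13 libraries, with a median of -0.0386. Over 36 pairs of the 16 they ran from -0.335 to 0.369, with a median of -0.0478. Pairs with different numbers had medians of 0.00996 and 0.0255. Deviations from means of 2 or 3 libraries cannot tell whether the replicate numbers pair the libraries. The block lowered the 146 calls to 37.

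Of the 100 genes, 61 stayed with CPM, 47 with a mean of at least 5, 56 with 30 counts and 68 to 100 with a library left out, and 39 lie in components whose summed CPM was higher in all 0.5 h libraries than in the other 14, with no minimum mean (chosen after seeing the data). The rule gave 134 genes at 0.5 h, 6 at 12 h and 446 at 48 h with a mean of at least 5. Without replicate 1 of the time in question it gave 309, 613, 220, 392 and 1181 at 0, 0.5, 12, 24 and 48 h. Relative length was 0.570 from replicate 1 alone, and 36 neighbours were highest at 0.5 h among those with a mean of at least 1. The cause of these changes was not tested. Depth limits every level near 0.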

Other observations

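The 142 genes that met the rule below rank 100 had ratios from 3.30 to 1.11, with a median of 1.81. Their mean scaled value at 0.5 h had a median of 6.16 and reached 84.3. Of these, 116 had counts in all 14 other libraries and 0 had none there, whereas 16 and 13 of the first 100 genes did. This difference from the first 100 follows from ranking by the ratio.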
